A study of Mus musculus with 12 samples.

Results

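Glu-TTC fragments are short pieces of the glutamate tRNA whose anticodon reads TTC in DNA letters, measured here as small RNA in mouse sperm. The family held 219 of the 2971 sequences tabulated (7.37%) and 3.59% of the mean normalised reads. Its members were chosen from the data: sequences were ordered by their mean RPM (reads scaled to a common library total by the authors) over the 12 libraries, each joined the family of the nearest more abundant sequence within 2 edits, and the family was picked by its founder of 29 nt, its size and its mean total of 35226.5 RPM. Mean level and number of sequences are therefore a description of the choice and not a finding. The sperm were histone replacement-completed sperm, that is, sperm in which histones had been exchanged for protamines. They were taken from the caudal epididymis and vas deferens, mildly sonicated and precipitated in 82% Percoll. The males were wild type or lacked 1 copy of Atf7 (ATF7+/-), and between weeks 3 and 12 of age they ate either a control diet or a low protein diet (LPD). This gave 4 groups of 3 libraries each: wild type on control diet, wild type on LPD, ATF7+/- on control diet and ATF7+/- on LPD. The ATF7+/- mice carry 1 intact copy of the gene, and the labels do not give the strain, the number of animals behind a library, or whether libraries came from separate animals. The libraries held 2198744 to 6870039 reads. The p-values below measure only the spread between libraries, which may be technical. The table names no genes, so sperm markers could not be read from it.

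Transfer RNAs carry amino acids to the ribosome, and nucleases cut them near the anticodon loop into fragments, many of which keep the 5′ end. Such fragments are abundant in mature sperm, which gain many of them while passing through the epididymis, and paternal diet is known to alter their amounts. Atf7 encodes a stress-responsive transcription factor that silences its targets through histone methylation. The question put by the design is how a low protein diet and a missing Atf7 copy alter small RNA in sperm.

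Nearly all Glu-TTC members were 5′ fragments of 2 closely related tRNA sequences, which differ at base 6 and are called here the C form and the T form. The longest member of each is shown because it reaches the anticodon, whose letters (bases 34 to 36) are in capitals together with base 6. Positions are counted from 1 at the 5′ end of the complete fragment.
C form: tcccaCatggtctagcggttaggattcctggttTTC
T form: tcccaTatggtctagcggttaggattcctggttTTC
The reads were 36 bases long, so a fragment going past base 36 could not be read to its end. Base 6 lies in the acceptor stem (bases 1 to 7), which pairs the 5′ end of the tRNA with its 3′ end.

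The family nearest to Glu-TTC among the other abundant ones is Glu-CTC, the other glutamate tRNA, with 833 sequences. Of these, 62 did not join the family of the Glu-CTC founder when families were formed within 1 edit. They are called here the further form of Glu-CTC, and the rest its main form. Whether the 62 stem from a single tRNA sequence was not checked. The 2 edits that admit a member also bring both families close together. A member that joined at exactly 2 edits was at 67.7 RPM, and the most abundant sequence outside the family at 2 edits from a member was at 897.7 RPM and had joined Glu-CTC. Of the other members 181 joined at 0 edits and 36 at 1 edit.

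RefSeq lists 8 nuclear Glu-TTC tRNA genes on GRCm38.p6, the assembly that mm10 represents, each 72 bases long. They are n-TEttc1 (chr1:34434812-34434883), n-TEttc2 (chr3:96387405-96387476), n-TEttc3 (chr3:96346675-96346746), n-TEttc4 (chr14:79481668-79481739), n-TEttc5 (chr13:23463535-23463606), n-TEttc6 (chr14:76152774-76152845), n-TEttc7 (chr7:58399315-58399386) and n-TEttc8 (chr9:104408667-104408738). In the GENCODE annotation, n-TEttc2 lies in an intron of the lincRNA gene Gm17575, n-TEttc3 in an intron of the lincRNA gene Platr30, n-TEttc4 in an intron of Elf1 and n-TEttc5 in an intron of Btn1a1. The remaining 4 overlap no annotated gene. Which of these loci carries the C form and which the T form was not analysed here, and identical copies cannot be told apart from a fragment.

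The family was dominated by a few lengths of complete fragment, meaning fragments that start at base 1. The 8 most abundant members held 66.3% of the family's reads, and they are exactly the C and T forms ending at bases 28, 29, 30 and 31. These ends fall in the 5′ strand of the anticodon stem (bases 27 to 31), before the anticodon itself. The leading 5 members are printed with base 6 in capitals.
C form, 29 nt: tcccaCatggtctagcggttaggattcct
C form, 31 nt: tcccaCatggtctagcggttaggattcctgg
C form, 28 nt: tcccaCatggtctagcggttaggattcc
T form, 31 nt: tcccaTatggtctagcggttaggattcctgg
T form, 29 nt: tcccaTatggtctagcggttaggattcct
The founder, the C form of 29 nt, was at a mean of 4327 RPM, 12.3% of the family. It read 4686, 4513 and 3794 RPM in control-diet wild type, 4650, 3562 and 4551 on LPD, 4766, 5448 and 4197 in control-diet ATF7+/- and 4324, 3651 and 3778 on LPD. The 12 values overlap between the diets in both genotypes.

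The C form of 31 nt was at a similar mean, 4090 RPM, but varied far more. It read 5046, 8055 and 2775 RPM in control-diet wild type and 2869, 2417 and 2957 on LPD. In ATF7+/- it read 7468, 5976 and 2390 RPM on control diet and 2864, 3253 and 3010 on LPD. Control-diet replicates 1 and 2 of both genotypes were above all other libraries, while control-diet replicate 3 of both lay within or below the range on LPD. The T form of 31 nt (mean 3033 RPM) showed the same pattern, with 4014, 4601 and 2184 RPM in control-diet wild type against 2331, 1955 and 2477, and 5429, 4438 and 1818 RPM in ATF7+/- against 2339, 2438 and 2370. The C form of 28 nt (mean 4084 RPM) did not show it in wild type. There it read 3559, 3504 and 3776 RPM on control diet and 3754, 3249 and 4622 on LPD. In ATF7+/- it read 5063, 6116 and 4181 RPM on control diet against 4364, 3262 and 3560 on LPD. Control-diet replicates 1 and 2 of ATF7+/- were thus again above all other libraries, with replicate 3 within the range on LPD.

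Among complete reads without a substitution, end 31 took 25.1% ± 6.49 and end 29 25.7% ± 3.06 (SD, n = 12 libraries). End 28 took 22.2% ± 3.28, end 30 12.1% ± 0.99, end 34 5.07% ± 1.25, end 33 3.42% ± 0.66, end 27 3.18% ± 0.93 and end 32 2.41% ± 0.33. Ends 35 and 36, further into the anticodon, took 0.26% ± 0.15 and 0.52% ± 0.36. As reads stop at 36 bases, those counted at end 36 may come from longer fragments. The C form of 34 nt, which stops at the first anticodon base, was the most abundant member past base 31, at 876.2 RPM.
C form, 34 nt: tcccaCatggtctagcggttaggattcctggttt
The most abundant members of the remaining lengths, each a C form, were at 646.9 RPM for 27 nt, 2198 RPM for 30 nt, 419.8 RPM for 32 nt, 583.0 RPM for 33 nt, 43.8 RPM for 35 nt and 84.6 RPM for 36 nt.
The share of end 31 was 31.1%, 39.0% and 20.6% in control-diet wild type, 21.0%, 21.8% and 20.8% on LPD, 34.3%, 28.2% and 18.2% in control-diet ATF7+/- and 20.7%, 23.4% and 22.5% on LPD. The 4 highest shares were again those of control-diet replicates 1 and 2.

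The T form made up a nearly constant part of the family. It held 32.9% to 37.7% of the reads with base 6 read in the 12 libraries (35.8% ± 1.18, SD), at 12524 ± 2959 RPM against 22490 ± 5388 RPM for the C form. The substitution that separates it from the founder is C6T. The T share varied with the end of the fragment. It was 23.4% ± 2.47 at end 27, 31.9% ± 0.91 at end 28, 37.2% ± 1.46 at end 29, 34.3% ± 1.66 at end 30 and 43.3% ± 2.43 at end 31. In 12 of 12 libraries the T share at end 31 was above that at end 28, and among ends 28 to 31 it was the highest in 12 of 12. At end 31 it ranged from 36.4% to 45.6%, and at end 28 from 30.6% to 33.3%, without overlap. This was noticed in the data and is given without a test.

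Members with substitutions were many but mostly rare. Of the 158 complete members, 20 were exact, 41 differed in the last base, 86 had an internal substitution and 11 a different first base. The exact members held 17354 RPM in the C form and 9948 RPM in the T form, out of 32834 RPM of complete reads. Reads that differ in the last base held 12.3% to 17.4% of the family's reads. The most abundant of them, which carries C28T, was at 788.0 RPM, and the changed last base is in capitals beside base 6.
C form, 28 nt, C28T: tcccaCatggtctagcggttaggattcT
C form, 29 nt, T29C: tcccaCatggtctagcggttaggattccC
The T29C sequence was at 560.0 RPM. A differing last base was most frequent at end 28, in 17.8% to 27.9% of complete reads ending there, against 8.47% to 11.7% at end 31. Among ends 27 to 34, end 28 was the highest in 12 of 12 libraries. The differing base was A in 42.2% ± 2.93, T in 28.6% ± 2.05, C in 26.3% ± 1.81 and G in 2.85% ± 0.36 of such reads (SD, n = 12).

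The 86 internal substitutions lay at 20 positions, and 65 of them were transitions, including 34 T-to-C and 24 A-to-G changes. Each was at 0.116% to 0.424% of the exact sequence of the same form and end, with a median of 0.21%. The most abundant, C16A on the C form of 29 nt, was at 18.4 RPM. No internal substitution came near the level of the T form.

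A smaller group of 7 members, at 208.6 RPM in all, lacked bases near the 5′ end so that CCC was followed directly by ATGG. The leading one was at 67.7 RPM, and capitals mark the joint.
Gapped, 29 nt: tcCCATggtctagcggttaggattcctgg
These could not be given a start in the numbering of the complete fragment and were kept out of the complete and trimmed groups. They held 0.41% to 0.82% of the family's reads.

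Trimmed members, which start after base 1, numbered 54. Of these 32 started at base 2, 14 at base 3 and 8 later, and no member started before base 1. The most abundant starting at bases 2, 3 and 4, and the other trimmed members that lead the comparisons, are printed with base 6 in capitals.
Start at base 2, C form to base 29: cccaCatggtctagcggttaggattcct
Start at base 2, C form to base 31: cccaCatggtctagcggttaggattcctgg
Start at base 2, C form to base 28: cccaCatggtctagcggttaggattcc
Start at base 2, C form to base 30: cccaCatggtctagcggttaggattcctg
Start at base 2, T form to base 29: cccaTatggtctagcggttaggattcct
Start at base 2, T form to base 31: cccaTatggtctagcggttaggattcctgg
Start at base 3, C form to base 29: ccaCatggtctagcggttaggattcct
Start at base 4, C form to base 31: caCatggtctagcggttaggattcctgg
Most of them lack only the first T of the tRNA. Their 3′ ends fall at the same bases as those of the complete members.

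The share of family reads that were trimmed varied widely between libraries. It was 19.3%, 12.6% and 2.23% in control-diet wild type, and 1.28%, 1.74% and 2.42% on LPD. In ATF7+/- it was 6.98%, 5.05% and 4.44% on control diet, and 4.03%, 1.49% and 2.59% on LPD. In wild type, control-diet replicates 1 and 2 stood far above the rest while replicate 3 fell inside the range of LPD. In ATF7+/- the 3 control-diet libraries were above the 3 on LPD. Starts at base 2 accounted for most of it, from 1.08% to 17.3% of family reads. Starts at base 3 took 0.13% to 1.69% and later starts 0.04% to 0.32%. With 64576 to 267892 family reads per library, the widest 95% Wilson interval of a trimmed share spans 0.398 percentage points, an interval for counting error alone, as the reads carry no molecular identifiers and are not separate molecules.

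Over both genotypes, the mean trimmed share was 8.43% ± 6.39 on control diet and 2.26% ± 1.01 on LPD (SD, n = 6). The difference of −6.18 percentage points gave an exact two-sided permutation p of 0.01, with labels permuted within genotype (smallest possible 0.005), and 0.035 after Benjamini-Hochberg adjustment over the 7 share and ratio tests. Within wild type the difference was −9.57 points (exact permutation p = 0.2, adjusted 0.2625) and within ATF7+/- −2.79 points (exact permutation p = 0.1, adjusted 0.175). With 3 against 3 libraries no p under 0.1 is possible. The call over both genotypes was lost when any of 7 libraries was left out: each wild-type library on LPD, ATF7+/- control-diet replicates 1 and 2, and ATF7+/- LPD replicates 2 and 3 (adjusted p 0.0525 to 0.175). It was also lost under an alternative family rule of 1 edit, where the exact permutation p stayed at 0.01 but the adjusted p was 0.07. That rise came from the adjustment alone: the comparison of trimmed shares with Glu-CTC, adjusted together with it, went from an exact sign-flip p of 0.000488 to 0.1318. On control diet, deviations of wild-type and ATF7+/- libraries with the same number were correlated, so these 6 libraries may not be independent. With the replicate block the call was also lost (exact sign-flip permutation p = 0.0625, adjusted 0.2812). That block paired control-diet with LPD libraries of the same number within each genotype. Across diets, 0 of 6 libraries in wild type and 2 of 6 in ATF7+/- correlated best with their own number. The smallest p of the block is also larger than 0.005, so this loss cannot show whether the control-diet libraries are independent.

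At the level of single sequences, 21 of the 54 trimmed members were lower on LPD in wild type. edgeR's quasi-likelihood test, with p-values adjusted by Benjamini-Hochberg over the 2971 sequences and called under 0.05, found 21 of 219 members lower and 0 higher. In the whole table, 2.36% of sequences were called lower and 0.168% higher. All 21 were trimmed: 14 start at base 2, 6 at base 3 and 1 at base 5. None of the 158 complete members was called. Over all members the median log2 fold change was −0.56, against −0.10 for all sequences. It was −3.22 in the 54 trimmed members and −0.30 in the 158 complete members.

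The leading called member, which runs from base 2 to base 29 of the C form, read 1426, 900.1 and 94.8 RPM on control diet in wild type and 60.1, 65.8 and 138.5 RPM on LPD. Its log2 fold change was −3.20 (SE 0.78), and the groups overlap through control-diet replicate 3. In ATF7+/- it read 530.5, 392.5 and 215.1 RPM against 238.4, 68.1 and 133.3 RPM. The member from base 2 to base 31 of the C form read 1154, 1175 and 52.7 RPM in control-diet wild type and 21.9, 26.4 and 58.2 RPM on LPD (log2 fold change −4.48, SE 0.885). Here too replicate 3 on control diet was within the range of LPD. The T-form member with the same ends read 743.1, 599.1 and 35.8 RPM against 19.3, 19.8 and 27.8 RPM (−4.36, SE 0.88), and in this case the groups did not overlap. The T-form member from base 2 to base 29 went from a mean of 443.1 to 42.7 RPM (−3.38, SE 0.78), and the C-form member from base 2 to base 30 from 288.0 to 26.3 RPM (−3.45, SE 0.82). The C-form member from base 3 to base 29 read 222.3, 105.3 and 26.8 RPM against 21.9, 15.0 and 16.1 RPM (−2.75, SE 0.60), again without overlap. Each of the 21 had an adjusted p of 0.0486, so the whole set sits just inside the threshold.

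These calls in wild type rest on few libraries. Leaving out any library other than control-diet replicate 3 of either genotype gave 0 called members and 0 called sequences in the whole table. Leaving out replicate 3 gave 76 members (wild type) and 29 (ATF7+/-). The calls in the whole table then rose from 75 to 577 and 134. Leaving out control-diet replicates 1 and 2 in both genotypes left 1 control-diet library per genotype. The log2 fold change of the base 2 to base 29 C form was then −0.11 in place of −3.20. Calls were also 0 with a mean of at least 5 RPM, with the libraries of the contrast alone, with the replicate block and in limma-voom. In these settings the whole table had 0 called sequences as well. DESeq2 called 54 members, among 319 of 2971 sequences.

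In ATF7+/- LPD changed no member past the threshold. The table held 0.0337% of sequences called lower and 0.0673% called higher, and 35 of 219 members had an unadjusted p under 0.05, beside 501 of 2971 sequences. DESeq2 and limma-voom also called 0 members, among 55 and 1 called sequences in the whole table. All 54 trimmed members had a negative log2 fold change, with a median of −1.35, against 0.03 for all sequences. They share most of their bases and their libraries and are not independent. The lowest p belonged to the C form from base 3 to base 31 (35.7, 19.8 and 43.7 RPM on control diet, 7.25, 4.51 and 8.59 RPM on LPD, log2 fold change −2.27, adjusted p 0.2331). Its groups did not overlap. The next were the C form from base 2 to base 32 (−1.88, adjusted p 0.2478) and the C form from base 3 to base 32 (5.11 ± 2.69 RPM on control diet and 1.19 ± 0.54 RPM on LPD, too low for a fold, adjusted p 0.2478).
Start at base 3, C form to base 31: ccaCatggtctagcggttaggattcctgg
Start at base 2, C form to base 32: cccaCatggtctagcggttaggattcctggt
Start at base 3, C form to base 32: ccaCatggtctagcggttaggattcctggt
Whether the diet effect differs between genotypes was tested by the interaction, where 0 members were called, in a table with 0% called. Of the 219 members, 20 had an unadjusted p under 0.05, beside 292 of 2971 sequences, and the lowest adjusted p was 0.4678. DESeq2 and limma-voom called 0 members, among 5 and 0 called sequences in the whole table. The median interaction was 1.92 on the log2 scale in trimmed members and 0.07 in complete members, against 0.16 in all sequences.

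With both genotypes in 1 contrast, 56 members (25.6%) were lower on LPD and 0 higher, in a table with 10.3% called lower and 1.55% called higher. Of the 54 trimmed members 47 were lower: all 32 that start at base 2, 11 of 14 at base 3 and 4 of 8 with later starts. Among complete members 8 of 158 were lower, and 1 of 7 gapped members. The median log2 fold change was −2.32 in trimmed members, −0.28 in complete members and −0.01 in all sequences. The C form from base 2 to base 29 was at −2.28 (SE 0.53, adjusted p 0.02343), and that from base 2 to base 31 at −3.27 (SE 0.59, adjusted p 0.01995). The C form from base 2 to base 28 read 790.0, 454.9 and 107.0 RPM on control diet and 68.5, 80.0 and 143.3 RPM on LPD in wild type. In ATF7+/- it read 400.0, 321.3 and 109.2 RPM against 179.3, 55.0 and 99.4 RPM, and its log2 fold change over both genotypes was −1.77 (SE 0.46, adjusted p 0.03133). In both genotypes the diets overlap through control-diet replicate 3.

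The complete members that passed over both genotypes were rare ones. Of the 8, 7 carry an internal substitution and end at base 31, among them C16A at 13.6 RPM (−1.16, adjusted p 0.02426) and T11C at 11.9 RPM (−1.11, adjusted p 0.03034), and 1 is a sequence ending at base 32 with T32G. The exact C and T forms of 31 nt, from which the former differ by 1 base, had −0.87 (SE 0.28, adjusted p 0.06015) and −0.69 (SE 0.25, adjusted p 0.08846) and were not called. All 51 complete members ending at base 31 had a negative value, with a median of −0.83, whereas the 61 ending at base 28 or 29 had a median of −0.17. These 51 sequences share most of their bases and their libraries and are not independent. Reads past base 34 went the other way without passing the test: the C forms of 35 and 36 nt were at 0.78 (adjusted p 0.1281) and 0.99 (adjusted p 0.1621). The member of 36 nt may include longer fragments cut off by the read length.

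The 56 calls also depend on particular libraries. Leaving out wild-type LPD replicate 1 or 2, or ATF7+/- LPD replicate 2 or 3, gave 0 called members in each case. The whole table then also had 0 called sequences. Leaving out control-diet replicate 1 gave 21 (wild type) and 12 (ATF7+/-), and control-diet replicate 2 gave 34 and 28. The whole table then had 102 and 56, and 223 and 160, called sequences, against 353 with all libraries. Leaving out control-diet replicate 3 of either genotype gave 95 members, among 714 (wild type) and 798 (ATF7+/-) called sequences. With control-diet replicates 1 and 2 left out in both genotypes, 1 control-diet library remained per genotype. The C form from base 2 to base 31 was then at −0.97 in place of −3.27. limma-voom called 0 members and 0 sequences in the whole table.

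Genotype changed no member past the threshold. On control diet 0 members were called in a table with 0% called, and 15 of 219 members had an unadjusted p under 0.05, beside 125 of 2971 sequences. All 54 trimmed members had a negative log2 fold change (ATF7+/- against wild type), with a median of −1.22, against −0.055 for all sequences. These sequences share most of their bases and their libraries and are not independent. Together, trimmed reads were at 8760, 5701 and 652 RPM in control-diet wild type and 3349, 2331 and 1303 RPM in control-diet ATF7+/-. Wild-type control-diet replicate 3 thus lay below every control-diet ATF7+/- library. The 3 members with the lowest p were the C form from base 2 to base 31 with G31T (−2.17), the complete C form of 28 nt with G9A (1.24) and the C form from base 4 to base 34 (−1.84), each with an adjusted p of 0.9652. On low protein diet 0 members were called, in a table with 0.0673% called lower and 0.135% called higher, and 9 of 219 members had an unadjusted p under 0.05, beside 506 of 2971 sequences. DESeq2 called 0 members on control diet (among 0 sequences) and 1 on LPD (among 102 sequences). With limma-voom it was 0 in both (among 0 and 6 sequences). The lowest p on LPD was that of the T form of 27 nt with C27T, with a log2 fold change of 1.25 (adjusted p 0.1129), followed by the C form of 27 nt with C27A (0.78, adjusted p 0.1958).
T form, 27 nt, C27T: tcccaTatggtctagcggttaggattT
C form, 27 nt, C27A: tcccaCatggtctagcggttaggattA
Next was the complete C form of 30 nt with T29G (1.28 ± 0.83 RPM in wild type and 5.93 ± 1.52 RPM in ATF7+/-, too low for a fold, adjusted p 0.2021). All 41 complete members with a differing last base had a positive log2 fold change on this diet, with a median of 0.39 against 0.11 for all sequences, and none was called. These members share their libraries and are not independent either. The share of family reads with a differing last base was 15.3% to 16.0% in ATF7+/- and 13.6% to 14.1% in wild type on LPD, without overlap, whereas on control diet the groups overlapped. This share was compared after its values were seen and has no test.

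The total of the family did not pass the test in any contrast. It was 45359, 45225 and 29301 RPM in control-diet wild type and 30147, 24594 and 32009 RPM on LPD. In ATF7+/- it was 47992, 46180 and 29369 RPM against 32187, 30097 and 30257 RPM. The totals of control-diet replicates 1 and 2 were above all others in both genotypes, and replicate 3 was within the range on LPD in wild type and below it in ATF7+/-. In edgeR over the 19 families the log2 fold change was −0.47 (SE 0.20, adjusted p 0.3896) in wild type, −0.42 (SE 0.20, adjusted p 0.4583) in ATF7+/- and −0.44 (SE 0.14, adjusted p 0.09583) over both. Exact permutation tests of the totals gave p = 0.3, 0.4 and 0.06. Between genotypes the log2 fold change was 0.04 (SE 0.20, adjusted p 0.9388) on control diet and 0.09 (SE 0.20, adjusted p 0.7671) on LPD. Without control-diet replicate 3 of wild type or of ATF7+/- the fall over both genotypes passed the test (−0.53, adjusted p 0.00901, and −0.54, adjusted p 0.005232). Complete reads alone were at 36378 to 44249 RPM in control-diet replicates 1 and 2 and at 23998 to 31063 RPM in the other 8 libraries. RPM are shares of a library total, so these values do not measure absolute amounts. In such bulk samples, fewer sperm carrying a fragment and less of it per sperm cannot be told apart.

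The share of complete reads longer than 29 nt was 49.7%, 59.0% and 44.3% in control-diet wild type and 42.5%, 42.5% and 41.5% on LPD, against 55.0%, 47.3% and 37.7%, and 40.4%, 50.3% and 46.3%, in ATF7+/-. The wild-type groups did not overlap and the ATF7+/- groups did. Its difference between diets over both genotypes was −4.91 points (exact permutation p = 0.225, adjusted 0.2625). The share of reads with any substitution or gap differed by 0.60 points (exact permutation p = 0.465, adjusted 0.465).

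Against Glu-CTC in the same libraries, Glu-TTC fragments ended elsewhere. Of the complete reads of the families, end 29 took 40.3% to 53.8% in Glu-CTC and 21.4% to 31.3% in Glu-TTC. End 31 took 8.77% to 20.3% in Glu-CTC and 17.5% to 37.7% in Glu-TTC, and end 28 took 9.12% to 13.6% and 17.4% to 28.4%. In 12 of 12 libraries end 29 was higher in Glu-CTC and ends 28, 31 and 34 were higher in Glu-TTC. These comparisons of ends were added after the values were seen and have no test.

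The amount of Glu-TTC relative to Glu-CTC was 9.90, 10.7 and 6.36 reads per 100 Glu-CTC reads in control-diet wild type and 6.56, 5.26 and 6.99 on LPD. In ATF7+/- it was 10.6, 9.41 and 7.96 against 7.54, 7.98 and 7.61. The log2 ratio on LPD minus that on control diet was −0.38 over both genotypes, with an exact permutation p of 0.04 that did not pass adjustment (0.0933). Leaving out control-diet replicate 3 of wild type or of ATF7+/- brought it past the threshold.

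Fewer reads were counted as trimmed in Glu-TTC than in the whole Glu-CTC family. The share was lower in Glu-TTC in 12 of 12 libraries, by 2.83 percentage points on average (exact sign-flip permutation p = 0.000488, the smallest 12 libraries can give, adjusted 0.003418). This direction depends on how Glu-CTC is bounded. The further form of Glu-CTC was counted as trimmed in 40.9% to 69.6% of its reads, at 35357 RPM in all, against 1.36% to 14.0% in the main form. Starts in Glu-CTC were numbered against its main form by substitutions alone. A complete sequence of the further form could therefore be counted as trimmed, whereas gapped Glu-TTC members were kept out. How many were so counted was not checked, so the shares of the 2 families are not like measures. Under families formed within 1 edit, which leave the further form out, Glu-TTC was higher by 0.87 points (exact permutation p = 0.1318, adjusted 0.2307). The main form alone was below Glu-TTC in 7 of 12 libraries. In both Glu-CTC forms and in Glu-TTC, wild-type control-diet replicates 1 and 2 had the highest trimmed shares among wild-type libraries. The C form of Glu-TTC was trimmed more often than the T form in 12 of 12 libraries, at 5.66% ± 5.60 against 4.84% ± 5.19 (SD, n = 12).

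In the same contrast over both genotypes, 86 of 178 Glu-CTC sequences counted as trimmed were lower, with a median log2 fold change of −1.41. In Glu-TTC these values were 47 of 54 and −2.32. Complete sequences had medians of 0.05 in Glu-CTC and −0.28 in Glu-TTC. These are counts and medians side by side, and the difference between the families was not tested.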

How the data were processed

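The deposited table holds, per unique sequence and library, raw read counts and normalised values that the authors scaled to RPM (reads per library total), per the file headers. Dividing counts by the deposited RPM gave 1 total per library, 2198744 to 6870039 reads, of which the table holds 97.5 to 98.22%. A count of 0 allows up to 0.437 to 1.36 RPM (3 counts), and no fold is given where a group mean is under 1.36 RPM. The build was mm10 per the submitters' processing notes. Aligner and counter: not given in the sources used here. Samples were grouped by the genotype and diet in the labels.

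Families were formed with edlib 1.3.9.post1. Members, forms, classes and lists were chosen with earlier results of these data known, and the C and T forms and the gapped class took shape after the table was opened. The form of a sequence comes from base 6, and the anticodon from the longest members. Gene positions are from RefSeq and GENCODE. A sequence of another family is not reported here.

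edgeR 4.0.16 (R 4.3.3) was fitted to the counts of all 2971 sequences and 12 libraries as 4 group means. Library sizes were the recovered totals, without TMM, and p-values are two-sided. Standard errors were derived from the fold change and the F statistic. Family totals were tested likewise over 19 families. The fitting was tested on simulated data. Alternatives were DESeq2 1.42.0, limma-voom 3.58.1, TMM scaling, a mean of at least 5 RPM, the contrast's own libraries, a replicate block, leaving libraries out, and families within 1 edit. On control diet, deviations from the group mean correlated between libraries of the same number (r 0.547, 0.143 and 0.522). This pairing is read from the data, as the labels state none. In the other contrasts r ran from −0.403 to 0.414, the highest for replicate 1 of diet in ATF7+/-. There 0 to 2 of 6 libraries correlated best with their own number, against 4 of 6 on control diet. Sequences named are the 5 highest means, the most abundant of each start and length class and of the substitution variants, and per contrast the 6 called members with the highest means or, where fewer than 3 were called, the next by p up to 3. Others named, including the gapped member and the complete members called over both genotypes, were chosen after their values were seen.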

Additional observations from a re-analysis of the deposited data

How the results depend on the processing

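Counts of called members moved most. For diet in wild type (21), DESeq2 gave 54 (319 of all 2971 sequences called), and limma-voom, a mean of at least 5 RPM, the contrast's own libraries and the replicate block gave 0, as did leaving out control-diet replicates 1 and 2 of both genotypes. For diet in ATF7+/- (0), the replicate block gave 27 (25 lower and 2 higher, among 260 of all sequences). For genotype on low protein diet (0), DESeq2 gave 1 (102 of all sequences) and the contrast's own libraries 6 (372). For diet over both genotypes (56), limma-voom gave 0 (0 of all sequences). DESeq2 gave 69 (524), TMM scaling 56 (367), the replicate block 53 (356) and a mean of at least 5 RPM 43 (277). The replicate block assumes that libraries with the same number belong together, which the labels do not state. On control diet, where it called 0 members, 4 of 6 libraries correlated best with their own number. On the other contrasts 0 to 2 of 6 did. These correlations do not settle whether the numbers mark a pairing in any contrast.

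Leaving out 1 library gave 0 to 76 members for diet in wild type, 0 to 2 for diet in ATF7+/-, 0 to 1 for genotype on control diet, 0 on low protein diet, 0 to 95 for diet over both genotypes and 0 to 6 for the interaction (39 of all sequences at the highest). The log2 fold change of the family total then ranged from −0.6473 to −0.3627 for diet in wild type, from −0.6102 to −0.2923 in ATF7+/- and from −0.5384 to −0.3795 over both. For genotype on control diet it ranged from −0.1373 to 0.2367, below 0 without wild-type replicate 3 (−0.1373) or ATF7+/- replicate 1 (−0.08115) or 2 (−0.04696). On low protein diet it ranged from −0.01078 to 0.1725, below 0 without wild-type replicate 2. The fall passed the threshold in wild type without control-diet replicate 3 (adjusted p 0.02825) and in ATF7+/- without control-diet replicate 3 (adjusted p 0.01793). The trimmed share over both genotypes ranged from −8.465 to −4.194 points and the log2 ratio to Glu-CTC from −0.4965 to −0.3083.

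The trimmed share over both genotypes was −6.209 points (adjusted p 0.07) with families within 1 edit. There its exact permutation p was unchanged, and only the adjustment moved, through the comparison with Glu-CTC. It was −6.176 (adjusted p 0.2812) with the replicate block, whose smallest exact p is larger. The difference in trimmed share between Glu-TTC and Glu-CTC turned from −2.83 to 0.8738 points with families within 1 edit, which leave the further Glu-CTC form out. The cause of the other changes was not tested.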
